A study of Mus musculus with 12 samples.

Results

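The genes described here are 10 markers of radial glia and astroglia: Fabp7, Slc1a2, Slc1a3, Apoe, Nfia, Nfib, Nfix, Nes, Vim and Gfap. They were chosen by name, with earlier results of these data known. For each gene the probe sets annotated to that symbol alone were taken, and the 1 with the highest mean log2(signal + 16) over the 12 arrays was used. All 10 were found among the 18193 genes that had such a probe set.

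Affymetrix arrays were used to profile mouse embryonic stem (ES) cells with a tetracycline-responsive Neurog1 transgene, before and after it was switched on. The labels give the cells as 129P2/OlaHsd (E14, Ainv15), kept in medium with serum, LIF, puromycin and G418. The 4 groups were uninduced cells of the maintenance culture at 0 h and cells induced with doxycycline at 1 ug/ml for 24, 48 or 72 h. Each group held 3 arrays, called biological replicates in the labels with nothing further on how they were separated. All 4 groups share 1 engineered line, and the sources used here do not say whether it is a single clone. The only uninduced arrays are those of 0 h. Effects of the transgene, of doxycycline and of further time in culture therefore cannot be told apart.

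Radial glia are the neural stem cells of the developing brain and spinal cord, which give rise first to neurons and later to astrocytes and oligodendrocytes. They share many genes with astrocytes, among them a brain fatty acid binding protein, glutamate transporters and intermediate filaments. Nuclear factor I proteins are transcription factors that take part in the switch from making neurons to making glia. Neurog1 is a proneural basic helix-loop-helix protein, known for driving neuron formation in neural progenitors and for holding back astrocyte formation there. The comparisons ask how the glial side of that programme moved in ES cells after the factor was induced.

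The induction was visible in each induced array. Neurog1 (probe set 1450836_at) had signals of 11.4, 18.7 and 4.53 in uninduced cells. The signals were 756, 931 and 974 at 24 h, 1089, 1152 and 889 at 48 h, and 783, 679 and 465 at 72 h. The sources used here do not say whether this probe set reads the transgene, the endogenous gene or both. The cells matched their label at 0 h: all 8 of the ES cell genes checked lay above the array median in the 3 uninduced arrays, and Pou5f1, the pluripotency factor Oct4, had signals of 4936 to 6063. The array medians lay between 19.5 and 32.8, and a signal near or below these values is called dim here. Induced 24 h replicate 1 stood apart. It correlated at 0.787 and 0.812 with the other 24 h arrays across genes, against 0.961 to 0.988 for all other pairs within a group. Its Pcx probes had a 3' to 5' ratio of 6.81, against 1.22 to 2.8 elsewhere, while Gapdh (0.862) and Actb (1.42) lay within the other arrays' range. The 24 h differences and counts are therefore also given without it.

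Of the 10 genes, 8 passed the filter for testing, which asked for a signal above the array median on all 3 arrays of at least 1 group. Apoe and Vim passed it in all 4 groups. Fabp7, Slc1a2, Nfia and Nes passed it in induced groups alone, and Slc1a3 and Nfib in uninduced cells alone. Those 6 genes lay on different sides of the filter in different groups, so the counts below describe the set and are no evidence about it. Nfix and Gfap passed in no group. In what follows, a difference is the induced minus the uninduced mean of log2(signal + 16) with its standard error from limma (n = 3 arrays against n = 3). A gene is said to have risen or fallen where the two-sided p, adjusted by Benjamini-Hochberg over 11806 genes, was under 0.05. This scale understates the change of dim genes, and no probe set's level is set against that of another gene.

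After 24 h, Fabp7 and Slc1a2 had risen and Nfib had fallen, which is 3 of the 8 tested genes. In the same comparison 11.3% of all tested genes were called, 8.12% higher and 3.18% lower. After 48 h, Fabp7, Slc1a2, Nfia and Vim had risen and Apoe, Slc1a3 and Nfib had fallen. That is 7 of 8, with 36.6% of all tested genes called, 22.6% higher and 14.0% lower. After 72 h the same 4 genes had risen and the same 3 had fallen, with 43.9% of all tested genes called, 25.3% higher and 18.6% lower. Nes passed at no time. In the order of times, the median difference of the 8 genes was -0.12, 0.72 and 0.93, and that of all tested genes was 0.10, 0.12 and 0.09. The bulk RNA does not separate fewer cells of a type from less RNA per cell. All comparisons with uninduced cells share the same 3 control arrays.

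Leaving out induced 24 h replicate 1 gave 4 called genes at 24 h, the fourth being Apoe, and the counts at 48 and 72 h stayed at 7. Leaving out the 4 arrays numbered 3 gave 0 called genes at 24 h by limma, with 4 at an unadjusted p under 0.05. It gave 5 at 48 h and 8 at 72 h, the eighth being Nes. The calls over all 11806 tested genes also moved. With all arrays they were 1335 at 24 h, 4316 at 48 h and 5180 at 72 h. Leaving out single arrays gave 701 to 2961, 3213 to 6717 and 4064 to 7358.

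**Figure D1:**
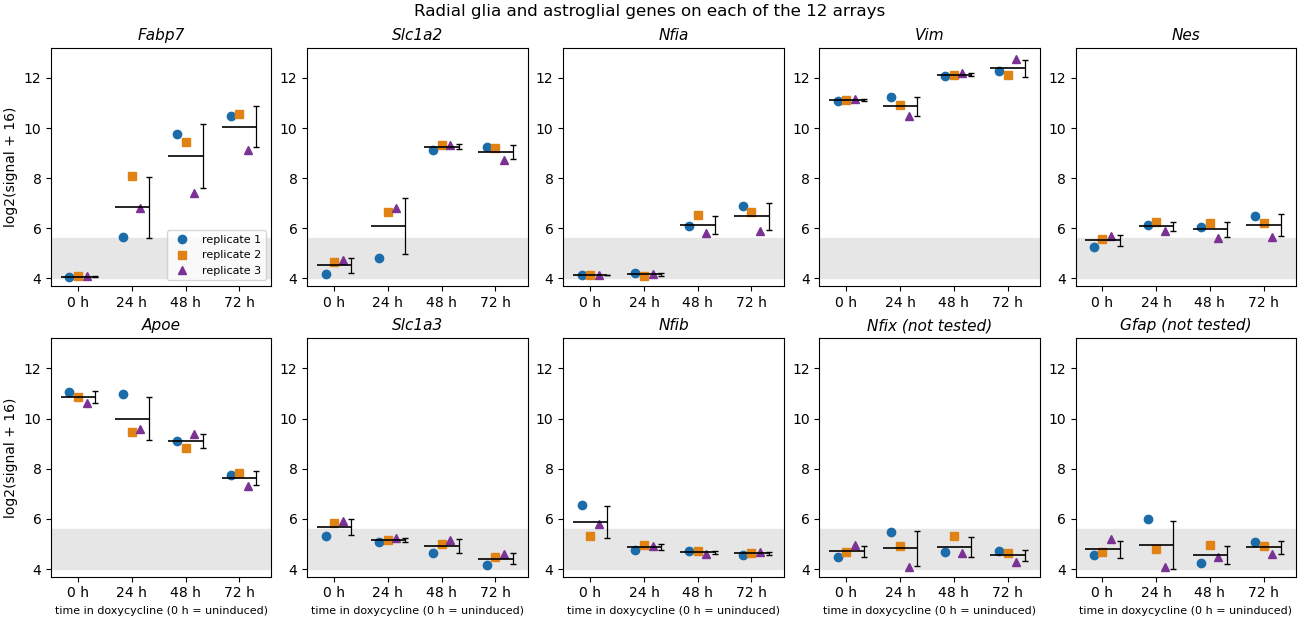
Log2(signal + 16) of each of the 10 genes on each of the 12 arrays, by time in doxycycline. Marker shape gives the replicate number, the horizontal line is the group mean and the bar beside it the SD (n = 3). The grey band reaches up to the highest of the 12 array medians. Fabp7, Slc1a2 and Nfia leave the band after induction, Vim and Apoe lie above it on every array, and Nfix and Gfap stay within or close to it.

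The promoter sequences of Fabp7, Slc1a2 and Nfia, whose 72 h differences were 5.99, 4.53 and 2.33, are shown because proneural basic helix-loop-helix proteins bind the E-box, whose letters are CANNTG. Each window is the 250 bases before the RefSeq start in GRCm38.p6, on the gene's strand, and capitals mark CANNTG. The Fabp7 window is chr10:57784673-57784922 (+), the Slc1a2 window chr2:102706188-102706437 (+) and the Nfia window chr4:97581693-97581942 (+).
Fabp7: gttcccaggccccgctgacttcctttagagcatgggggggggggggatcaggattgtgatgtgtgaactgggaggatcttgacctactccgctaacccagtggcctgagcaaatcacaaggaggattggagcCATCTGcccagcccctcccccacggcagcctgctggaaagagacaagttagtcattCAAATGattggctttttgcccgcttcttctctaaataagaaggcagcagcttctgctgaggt
Slc1a2: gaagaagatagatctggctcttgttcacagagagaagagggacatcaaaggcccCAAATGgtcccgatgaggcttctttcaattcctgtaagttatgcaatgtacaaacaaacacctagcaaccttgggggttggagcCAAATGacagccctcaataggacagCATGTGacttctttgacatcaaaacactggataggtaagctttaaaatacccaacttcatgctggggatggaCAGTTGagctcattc
Nfia: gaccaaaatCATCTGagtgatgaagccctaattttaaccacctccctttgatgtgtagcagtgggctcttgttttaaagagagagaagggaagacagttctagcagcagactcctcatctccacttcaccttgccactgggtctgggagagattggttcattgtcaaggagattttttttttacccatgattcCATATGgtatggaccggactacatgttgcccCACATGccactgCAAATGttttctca
The Fabp7 window holds CATCTG, which begins 118 bases before the start, and CAAATG at 62 bases. The Slc1a2 window holds 4 E-boxes, beginning 196, 112, 87 and 15 bases before the start. The Nfia window also holds 4. CATCTG begins 241 bases and CATATG 57 bases before the start, and the other two begin 26 and 14 bases before it. CANNTG reads the same on both strands, and 66.2% of all 32851 windows of this length hold it. CAGATG, which is CATCTG on the other strand, is in 14.4% of them and CATATG in 3.46%. RefSeq windows were found for 9 of the 10 genes, all but Nfib, giving 14 windows in all. CANNTG was in at least 1 window of 6 genes: these 3, and also Slc1a3, Apoe and Nfix, which fell or were not tested. That count is of genes, with 3 windows for Apoe and 4 for Nfix, while the 66.2% is of single windows. The 2 are therefore not the same measure. The windows of Vim, which also rose, and of Nes and Gfap held none. These are matches of letters, and which start site the cells used was not measured.

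Fabp7 encodes the brain fatty acid binding protein, a classical radial glia marker, and it rose at all 3 times. Its only probe set (1450779_at) had signals of 0.552, 0.854 and 0.956 in uninduced cells, below 1 on each array. After 24 h the signals were 33.9, 252 and 97.2. They were 861, 689 and 156 at 48 h and 1420.0, 1492 and 543 at 72 h. All 9 induced arrays lay above the uninduced ones, and replicate 3 was the lowest of its group at 48 and at 72 h.

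The Fabp7 difference was 2.77 ± 0.65 at 24 h (adjusted p = 0.0172), 4.82 ± 0.65 at 48 h (adjusted p = 0.000124) and 5.99 ± 0.65 at 72 h (adjusted p = 1.62e-05). The last is 63.5-fold on this scale. Since the uninduced signals are near the floor, the size depends on the pseudocount: the 72 h difference was 9.20 with a pseudocount of 1 and 4.11 with 64. The 24 h call was lost with a pseudocount of 64, which gave 1.40 (adjusted p = 0.117). It was also lost without uninduced replicate 1 (adjusted p = 0.0631), uninduced replicate 3 (adjusted p = 0.0543) or 24 h replicate 2 (adjusted p = 0.054). Without 24 h replicate 1 the difference was 3.38 ± 0.60 (adjusted p = 0.00154). Over the 23 alternatives the adjusted p ran from 0.00059 to 0.117 at 24 h. At 48 and 72 h all 23 alternatives kept the call.

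Between induced times, Fabp7 was higher at 72 h than at 24 h by 3.21 ± 0.65 (adjusted p = 0.0029). The step from 24 to 48 h was 2.04 ± 0.65 (adjusted p = 0.048), with overlapping groups. Only 9 of its 23 alternatives passed, with adjusted p from 0.0105 to 0.183, and without 24 h replicate 1 it was 1.44 (adjusted p = 0.098). The call was kept on leaving out 24 h replicate 2, 48 h replicate 3 or 72 h replicate 3, and lost on leaving out any of the other 9 arrays. From 48 to 72 h the difference was 1.17 ± 0.65 and did not pass (adjusted p = 0.77).

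Slc1a2 and Slc1a3 encode the glutamate transporters GLT-1 and GLAST, both carried by astrocytes, with GLAST also a standard radial glia marker. They moved in opposite directions. Slc1a2 (1438194_at) had signals of 1.96, 9.20 and 10.8 in uninduced cells and 12.3, 84.3 and 96.9 at 24 h. At 48 h it gave 544, 624 and 621, and at 72 h 584, 569.8 and 410.4. The 6 arrays of 48 and 72 h formed 1 high level, far above every array of the earlier groups, and 24 h replicate 1 was close to the uninduced arrays.

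The Slc1a2 difference was 4.73 ± 0.42 at 48 h (adjusted p = 5.59e-06) and 4.53 ± 0.42 at 72 h (adjusted p = 4.39e-06). Its rise from 24 to 48 h was 3.16 ± 0.42 (adjusted p = 0.000361), and 72 h differed from 48 h by -0.20 ± 0.42 (adjusted p = 1.0). At 24 h the difference was 1.58 ± 0.42 (adjusted p = 0.0315), and 9 of 23 alternatives lost that call. They include leaving out any 1 of the 3 uninduced arrays (adjusted p from 0.0668 to 0.129), 24 h replicate 2 (adjusted p = 0.0899) or 24 h replicate 3 (adjusted p = 0.0793). Without 24 h replicate 1 it was 2.21 ± 0.22 (adjusted p = 2.29e-05). The gene has 5 probe sets, and 2 of them exceeded the array median in a whole group. The other of these, 1451627_a_at, went from 1.10 to 2.18 in uninduced cells to 29.1 to 38.2 at 48 h and 26.1 to 28.3 at 72 h. All 5 were higher at 72 h, and the mean over all 5 was 1.39 higher, less than the 4.53 of the set used.

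Slc1a3 (1426340_at) had signals of 23.4, 41.6 and 43.7 in uninduced cells and 17.9, 20.0 and 21.4 at 24 h. It gave 8.51, 16.2 and 19.3 at 48 h and 1.81, 6.41 and 8.04 at 72 h. Only the 3 uninduced signals exceeded the median of their arrays, and on replicate 1 barely so (23.4 against a median of 23.31). GLAST transcript was thus dim on that uninduced array already, and on every induced array. No induced array reached the lowest uninduced one. The difference was -0.52 ± 0.23 at 24 h (adjusted p = 0.171), -0.76 ± 0.23 at 48 h (adjusted p = 0.0213) and -1.27 ± 0.23 at 72 h (adjusted p = 0.000748). Leaving out 24 h replicate 1 gave -0.48 ± 0.28 at 24 h (adjusted p = 0.225). The 72 h call held in all 22 alternatives that tested the gene. The 48 h call was lost in 5, among them leaving out uninduced replicate 2 (adjusted p = 0.0696), uninduced replicate 3 (adjusted p = 0.075) or 48 h replicate 1 (adjusted p = 0.0948). Of its 6 probe sets only this 1 rose above the median in a whole group, and 4 of 6 were lower at 72 h.

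The nuclear factor I genes split 3 ways. Nfia, known for its part in starting gliogenesis, was dim until 48 h. Its brightest probe set (1456087_at) gave 1.74, 1.68 and 1.47 in uninduced cells and 2.54, 1.25 and 2.17 at 24 h. The signals then were 52.1, 75.5 and 40.0 at 48 h and 103, 84.3 and 42.9 at 72 h. The 6 later arrays all lay far above the 6 earlier ones, and replicate 3 was the lowest at both later times. The difference was 0.03 ± 0.27 at 24 h (adjusted p = 0.958), 2.00 ± 0.27 at 48 h (adjusted p = 0.000112) and 2.33 ± 0.27 at 72 h (adjusted p = 2.3e-05). At 24 h it was 0.01 ± 0.31 without replicate 1 (adjusted p = 0.991). From 24 to 48 h Nfia rose by 1.97 ± 0.27 (adjusted p = 0.000397), and the step to 72 h was 0.34 ± 0.27 (adjusted p = 0.971). All 6 Nfia probe sets were higher at 72 h than in uninduced cells. The second brightest, 1421163_a_at, gave 0.464 to 10.1 in uninduced cells and 27.3 to 58.8 at 72 h.

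Nfib, a close relative that acts with Nfia in brain development, fell. Its brightest probe set (1438244_at) gave 77.7, 23.3 and 39.4 in uninduced cells, 10.9, 15.3 and 14.6 at 24 h, 9.98, 10.0 and 8.42 at 48 h, and 7.62, 8.76 and 9.46 at 72 h. Every induced array lay below every uninduced one, and the uninduced arrays spread widely. The difference was -0.99 ± 0.27 at 24 h (adjusted p = 0.0322), -1.21 ± 0.27 at 48 h (adjusted p = 0.00379) and -1.26 ± 0.27 at 72 h (adjusted p = 0.00226). All 7 Nfib probe sets were lower than in uninduced cells at each of the 3 times. At 24 h 13 of 22 alternatives kept the call, and it was lost without uninduced replicate 1, the brightest array (-0.66, adjusted p = 0.109). It was also lost without uninduced replicate 3 (adjusted p = 0.07), 24 h replicate 2 (adjusted p = 0.057), 24 h replicate 3 (adjusted p = 0.0542) or 72 h replicate 2 (adjusted p = 0.0515). Without 24 h replicate 1 it held (adjusted p = 0.0454). At 48 h it was lost only without the 4 arrays numbered 3 (adjusted p = 0.0525).

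Nfix could not be tested. Its brightest probe set (1436363_a_at) gave 6.42 to 14.7 in uninduced cells, 0.758 to 28.6 at 24 h, 8.59 to 24.0 at 48 h and 3.65 to 10.2 at 72 h. It exceeded the array median on 1 array, and none of its 5 probe sets did so in a whole group.

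**Figure D2:**
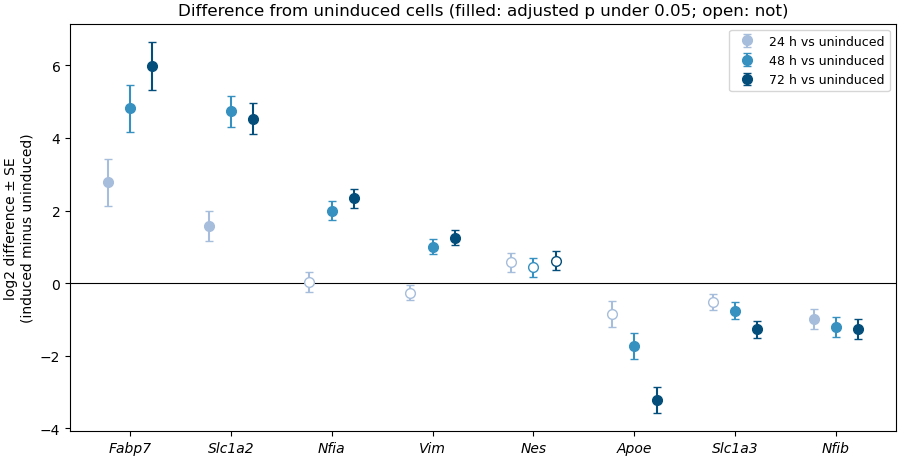
Difference of log2(signal + 16) from uninduced cells for the 8 tested genes at 24, 48 and 72 h, with bars of 1 standard error from limma (n = 3 against 3). Filled points passed at an adjusted p under 0.05. Slc1a2 stood at 4.73 and 4.53 at the later times, Nfia moved from 0.03 at 24 h to 2.00 at 48 h, and Apoe was lower at each later time.

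Among the intermediate filament genes, Vim rose, Nes did not pass and Gfap was not detected above the array median in any group. Vim encodes vimentin, which radial glia and immature astrocytes share with many other cells. It was bright in every array. The signals of 1438118_x_at were 2162, 2213 and 2291 in uninduced cells, 2364, 1902 and 1398 at 24 h, 4332, 4463 and 4649 at 48 h, and 4883, 4436 and 6905 at 72 h. The arrays of 0 and 24 h overlapped, and all 6 arrays of 48 and 72 h were above them. The difference at 24 h was -0.27 ± 0.21 (adjusted p = 0.455), or -0.44 ± 0.18 without 24 h replicate 1 (adjusted p = 0.0883). It was 1.01 ± 0.21 at 48 h (adjusted p = 0.00272) and 1.25 ± 0.21 at 72 h (adjusted p = 0.000455), which is 2.38-fold. Its 3 probe sets lay close together, with differences of 1.01 to 1.21 at 48 h and 1.14 to 1.43 at 72 h. The rise came between 24 and 48 h (1.27 ± 0.21, adjusted p = 0.00142), and 72 h against 48 h was 0.24 ± 0.21 (adjusted p = 0.995).

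Nes encodes nestin, the filament protein most used to mark neural progenitors. Signals of 1418289_at were 22.2, 32.0 and 36.1 in uninduced cells and 54.0, 59.8 and 43.2 at 24 h. They were 49.6, 58.4 and 33.2 at 48 h and 74.6, 59.1 and 34.0 at 72 h. Replicate 3 of both later groups lay within the uninduced range, and the other arrays lay above it. The difference was 0.57 ± 0.26 at 24 h (adjusted p = 0.186), 0.44 ± 0.26 at 48 h (adjusted p = 0.21) and 0.61 ± 0.26 at 72 h (adjusted p = 0.0765). At 24 h it was 0.55 ± 0.29 without replicate 1 (adjusted p = 0.187). At 72 h 4 of 22 alternatives passed. They were the 72 h group without replicate 3 (0.85, adjusted p = 0.021), all groups without the arrays numbered 3 (0.95, adjusted p = 0.0262), array weights (adjusted p = 0.00432) and the mean of all probe sets (0.80, adjusted p = 0.0101). The probe sets disagreed in size. On 1449022_at the signals were 20.5, 28.1 and 8.55 in uninduced cells and 98.6, 110.0 and 122 at 72 h, a difference of 1.89. The third probe set differed by -0.09.

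Gfap, the filament protein of mature astrocytes, was dim. Its brightest probe set (1426508_at) gave 7.31, 9.39 and 20.1 in uninduced cells, 47.3, 12.1 and 0.889 at 24 h, 3.07, 15.2 and 6.13 at 48 h, and 17.9, 14.0 and 8.24 at 72 h. The 1 value above its array's median came from 24 h replicate 1. Induced and uninduced arrays overlapped at each time, and none of the 3 probe sets exceeded the median in a whole group.

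Apoe encodes apolipoprotein E, the main lipid carrier of the brain and a product of astrocytes and microglia, which many other cells also make. It was bright in uninduced cells and was lower at each later time. Its only probe set (1432466_a_at) gave 2154, 1848 and 1553 in uninduced cells and 1996, 683 and 741 at 24 h. The signals were 539, 439 and 656 at 48 h and 199.8, 214 and 145 at 72 h. The 72 h arrays were the lowest of all, the 48 h arrays lay below all earlier ones, and at 24 h replicate 1 stayed within the uninduced range.

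The Apoe difference was -1.74 ± 0.36 at 48 h (adjusted p = 0.0023) and -3.21 ± 0.36 at 72 h (adjusted p = 1.83e-05), which on this scale leaves 0.108 of the uninduced level. At 24 h it was -0.86 ± 0.36 and did not pass (adjusted p = 0.148). Without 24 h replicate 1 it was -1.35 ± 0.20 (adjusted p = 0.000495). Apoe fell by 2.35 from 24 to 72 h (adjusted p = 0.000387). The step from 24 to 48 h was -0.88 ± 0.36 and did not pass (adjusted p = 0.106). From 48 to 72 h the difference was -1.47 ± 0.36, with no overlap between the groups, and the adjusted p was 0.0928. It passed in 4 of 23 alternatives, over which the adjusted p ran from 1.49e-05 to 0.802, among them the fit without 24 h replicate 1 (adjusted p = 0.000895).

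Of the steps between induced times, 24 to 48 h had 4 called genes, which were Fabp7, Slc1a2, Nfia and Vim, all higher at 48 h. In that comparison 17.8% of all tested genes were called, 10.3% higher and 7.55% lower. Of these calls 57.7% were upwards, or 45.7% under quantile scaling. From 48 to 72 h limma called 0 of the 8, with 2 at an unadjusted p under 0.05, and 0.796% of all tested genes, 0.644% higher and 0.152% lower. Between 24 and 72 h 6 were called, against 31.3% of all tested genes, 16.2% higher and 15.1% lower. Fabp7, Slc1a2, Nfia and Vim were higher at 72 h, and Apoe and Slc1a3 lower. The Slc1a3 difference was -0.75 ± 0.23 (adjusted p = 0.0267) and was kept in 15 of 22 alternatives. It was lost without 24 h replicate 2 (adjusted p = 0.0543), 24 h replicate 3 (adjusted p = 0.057), 72 h replicate 1 (adjusted p = 0.107) or 72 h replicate 2 (adjusted p = 0.0612).

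**Figure D3:**
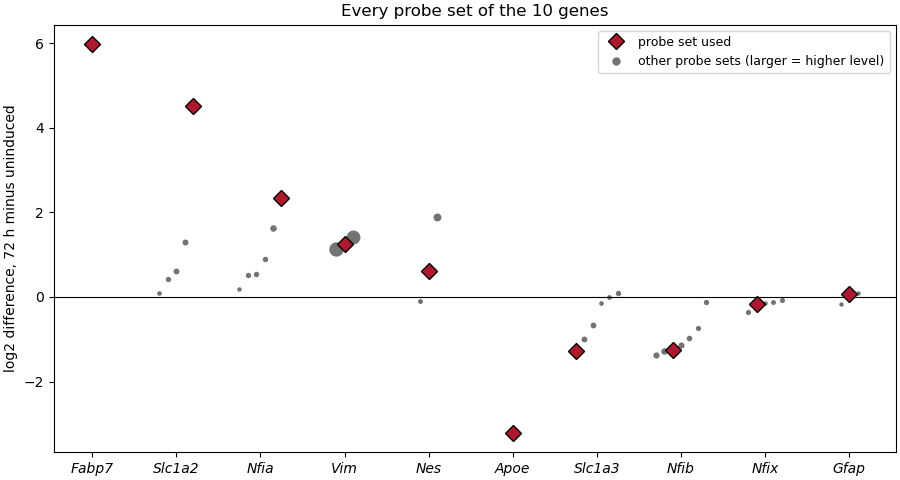
Difference of log2(signal + 16) between 72 h and uninduced cells for every probe set of the 10 genes. Diamonds are the probe sets used and grey points the others, drawn larger where the mean level was higher. All 5 sets of Slc1a2 and all 6 of Nfia are above 0, all 7 of Nfib are below 0, and the 3 of Vim lie between 1.14 and 1.43.

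The wider radial glia and neural progenitor list held 25 other genes, of which 23 were tested. At 24 h 10 were higher and 2 lower, at 48 h 13 were higher and 2 lower, and at 72 h 13 were higher and 4 lower. The shares of all tested genes were 8.12% higher and 3.18% lower at 24 h, 22.6% and 14.0% at 48 h, and 25.3% and 18.6% at 72 h. The list's median difference was 0.92, 1.31 and 1.04 at the 3 times, against 0.10, 0.12 and 0.09 for all tested genes. Of the 25 genes, 18 exceeded the array median on all 3 uninduced arrays and 23 on all 3 arrays of 48 h. Some thus passed the filter only through groups where they were high. The counts and medians of this and the later lists therefore describe the lists and are no evidence about them. Hes5, a Notch target that keeps progenitors undifferentiated, had signals of 1.36 to 2.25 in uninduced cells and 31.5 to 159 at 24 h. It reached 1398 to 1861 at 48 h and 532 to 1191 at 72 h. Its differences were 6.47 ± 0.41 at 48 h and 5.63 ± 0.41 at 72 h. Cdh2, the neural cadherin, rose by 4.43 ± 0.31 and 4.86 ± 0.31. The largest falls at both times were Hopx (-1.78 ± 0.24 and -1.72 ± 0.24) and Sox2 (-0.71 ± 0.16 and -1.10 ± 0.16). Sox2 marks ES cells as well as neural progenitors. The 24 h counts were 12 higher and 2 lower without 24 h replicate 1. Without the 4 arrays numbered 3 the 24 h counts were 4 higher and 1 lower, and those at 72 h 12 and 2. The shares above are from the fit with all arrays and do not match these refits. Calls over all tested genes at 24 h ran from 701 to 2961 on leaving out single arrays.

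The list of other astroglial genes held 27 genes. Of these 26 were measured and 17 tested, and limma called 0 higher and 1 lower at 24 h (4 and 3 at an unadjusted p under 0.05). The shares of all tested genes at 24 h were 8.12% higher and 3.18% lower. At 48 h 3 were higher and 4 lower, against 22.6% and 14.0% of all tested genes. At 72 h 2 were higher and 6 lower, against 25.3% and 18.6%. The median difference at 72 h was -0.68, against 0.09 for all tested genes. The rises at 72 h were Ppp1r3c, a glycogen-targeting phosphatase subunit (2.73 ± 0.29), and Slc4a4, a bicarbonate transporter (1.88 ± 0.26). The metallothioneins Mt2 (-2.09 ± 0.32) and Mt1 (-1.97 ± 0.31) had the largest falls at 72 h, and Ndrg2 (-1.82 ± 0.30) and Cbs (-1.76 ± 0.32) those at 48 h. The summed signal of the 26 genes was 12525 to 16646 in uninduced cells, 14654 to 20892 at 24 h, 8972 to 12740.0 at 48 h and 6918 to 9063 at 72 h. At 24 h the 20892 came from replicate 1, and replicates 2 and 3 gave 14654 and 17573. On all 3 arrays of a group, 13 of the 26 exceeded the array median at 0, 24 and 48 h and 11 at 72 h. Standard astrocyte genes were found on both sides of the filter. Gja1, a gap junction protein, gave 2026 to 3290 in uninduced cells and 2180 to 3257 at 72 h (-0.08 ± 0.22, adjusted p = 0.806). Aldh1l1, a folate enzyme, gave 52.2 to 109 and 20.2 to 38.7 (-0.94 ± 0.38, adjusted p = 0.0606). Glul, the glutamine synthetase, was bright and fell by 0.68 ± 0.21 (adjusted p = 0.0169). Aqp4, the water channel of astrocyte endfeet, gave 0.893 to 20.5 over the 12 arrays and S100b 4.03 to 10.6, and neither was tested. Without 24 h replicate 1 the 24 h counts were 2 higher and 3 lower. The shares above are from the fit with all arrays and do not match this refit.

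Cytokine signalling through JAK and STAT, and BMP signalling through SMAD proteins, are known inducers of astrocyte genes such as Gfap. Of 19 genes in that list 14 were tested. At 24 h 1 was higher and 5 lower, and at 48 and at 72 h 3 were higher and 4 lower. Of all tested genes 8.12% were higher and 3.18% lower at 24 h, 22.6% and 14.0% at 48 h, and 25.3% and 18.6% at 72 h. The list's median difference was -0.43, 0.61 and 0.28 in the order of times. Socs3, an inhibitor of the pathway that STAT3 itself induces, differed by -3.63 ± 0.29 at 48 h and -3.30 ± 0.29 at 72 h, a fall at both times. The ligand gene Bmp4 fell by 2.52 ± 0.36 at 72 h. The transducers Smad1 (2.33 ± 0.25) and Jak2 (2.04 ± 0.41) rose at 72 h, as did Cntfr (1.78 ± 0.42). The transducer Stat3 (-0.66 ± 0.23) and Il6st (-1.18 ± 0.27) fell at 72 h. Without 24 h replicate 1 the counts were 3 higher and 5 lower at 24 h, 6 and 4 at 48 h, and 6 and 5 at 72 h. Without the 4 arrays numbered 3, 2 were higher and 2 lower at 48 h. The shares above are from the fit with all arrays and do not match these refits. On leaving out single arrays, calls over all tested genes ran from 701 to 2961 at 24 h. They ran from 3213 to 6717 at 48 h and from 4064 to 7358 at 72 h.

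The other intermediate filament genes numbered 12, all tested, and 5 were higher and 3 lower at both 48 and 72 h. Of all tested genes 22.6% were higher and 14.0% lower at 48 h, and 25.3% and 18.6% at 72 h. The list's median difference was 0.37 at 48 h and 0.13 at 72 h, the latter -0.11 under quantile scaling. Neurofilament genes were found in both directions. Nefm rose by 3.86 ± 0.43 at 48 h and 6.59 ± 0.43 at 72 h, and Nefl by 4.76 ± 0.29 at 72 h. Ina, which encodes a further neuronal filament protein, rose by 2.37 ± 0.50 at 48 h. Lmna, a nuclear lamin gene, fell by 1.54 ± 0.30 and Nefh by 0.97 ± 0.31 at 72 h.

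Relatives of the 10 genes did not all move with them. Of 11 paralogs 7 were tested, and at 72 h 2 were higher and 4 lower, against 25.3% and 18.6% of all tested genes. Fabp5, another fatty acid binding protein, rose by 1.75 ± 0.33 at 72 h, and Fabp3 fell by 2.01 ± 0.44. Apoc1, the apolipoprotein gene next to Apoe in the genome, fell by 2.57 ± 0.39. Slc1a4, a neutral amino acid transporter, rose by 0.86 ± 0.32 at 72 h (adjusted p = 0.046). Its relatives Slc1a1 (-1.10 ± 0.25, adjusted p = 0.00318) and Slc1a5 (-1.21 ± 0.34, adjusted p = 0.0115) fell. Nfic, the fourth nuclear factor I gene, differed by 0.42 ± 0.29 and did not pass (adjusted p = 0.275). Among the lipoprotein partners of Apoe, 8 of 10 were measured and 6 tested. The receptors Vldlr (2.24 ± 0.45) and Lrp8 (2.23 ± 0.29) rose at 72 h, and none of the other 4 passed. Under quantile scaling 1 of those 4 was lower.

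**Figure D4:**
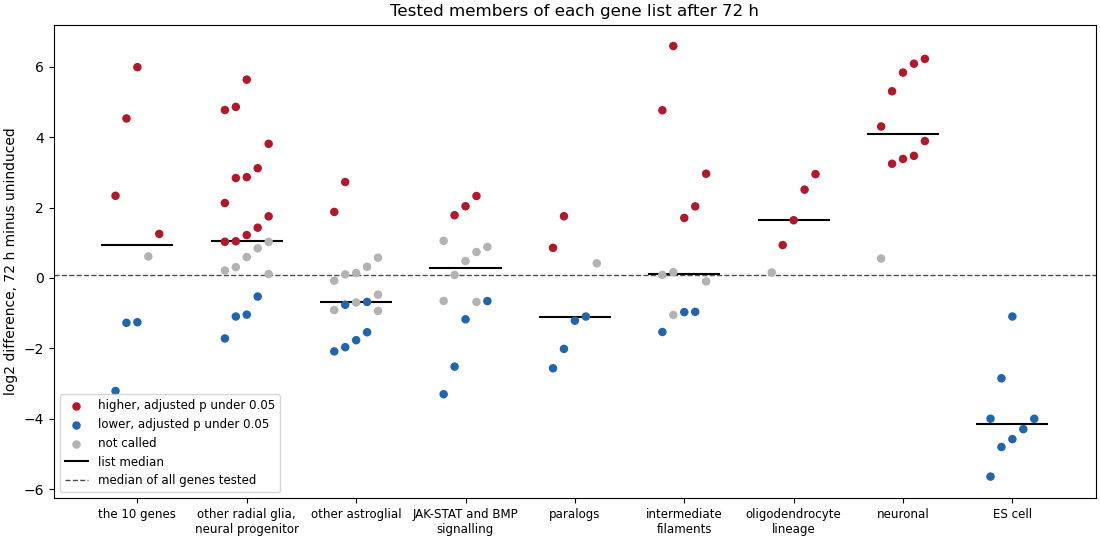
Difference of log2(signal + 16) between 72 h and uninduced cells for each tested gene of 9 lists, with 1 point per gene. Red points were higher and blue points lower at an adjusted p under 0.05, grey points did not pass, black lines are list medians and the dashed line is the median of all tested genes. The median of the other astroglial genes is -0.68, that of the other radial glia and progenitor genes 1.04, that of the neuronal genes 4.10 and that of the ES cell genes -4.15.

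Markers of other cell types moved in the same arrays, and their part in the results for the 10 genes was not tested. The summed signal of 10 neuronal genes was 3890 to 4318 in uninduced cells, 1817 to 4518 at 24 h, 10368 to 14629.7 at 48 h and 20369 to 21194 at 72 h. At 24 h the 4518 came from replicate 1, and replicates 2 and 3 gave 3084 and 1817, below the uninduced range. Of these 10, 9 were higher at 48 and at 72 h, led by Dcx, a microtubule protein of young neurons (6.22 ± 0.31 at 72 h). The shares of all tested genes were 22.6% higher and 14.0% lower at 48 h, and 25.3% and 18.6% at 72 h. The summed signal of 8 ES cell genes was 41462 to 47789, 20949 to 24665, 5692 to 8702 and 4994 to 5459 in the 4 groups in order, and all 8 were lower at 48 and 72 h. For 11 oligodendrocyte lineage genes the sum was 368 to 516 in uninduced cells and 566 to 1367 at 72 h, and 4 of the 5 tested were higher at 72 h. Mbp, a myelin protein gene, was among them, with 5.11 to 34.2 in uninduced cells and 111 to 248 at 72 h (2.51 ± 0.40, adjusted p = 0.000265). Cnp, another myelin gene, was bright and did not pass at 72 h (0.16 ± 0.30, adjusted p = 0.702). Mog, Mag and Gpr17 of the same list were dim.

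Macrophage and microglia genes, whose cells also make Apoe, had a sum of 212 to 475 in uninduced cells and 67.0 to 126 at 72 h. Only 2 of the 8 were tested, and of these Cd68, a lysosomal protein also present outside macrophages, fell by 2.39 ± 0.39 at 72 h. The complement gene C1qa gave at most 1.73 on any array. Fibroblast and feeder genes, whose cells express Vim, had a sum of 889 to 1417 in uninduced cells, 1485 to 1969 at 48 h and 551 to 1267 at 72 h, and 3 of the 10 were tested. The endoderm genes, which mark another Apoe-producing tissue, summed to 1445 to 1963 in uninduced cells and to 1653, 1524 and 4215 at 72 h, where replicate 3 alone lay above the uninduced range. Of 7 tested, 4 were higher at 72 h, against 25.3% of all tested genes, and the other 3 did not pass.

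The 8 tested genes were also set against all 6261 genes with enough spread over the 12 arrays, by Pearson's r of log2(signal + 16). These r values describe arrays that share groups and carry no test. Fabp7 was most like Kif21a (0.99), Scrn1 (0.98) and Ccl27a (0.98). Slc1a2 was most like Onecut2, Ppm1e and Prkcb, and Nfia most like Maf, Dcc and Ggt7, all at 0.99. Vim followed Lamp5 (0.96), Rin2 (0.95) and Bmper (0.95). Among the falling genes, Apoe was most like Pecr, Csad and Pcolce (each 0.97). Slc1a3 was most like Bdh2 (0.98), Sntb2 (0.97) and Steap1 (0.96), and Nfib most like Serpinb9b (0.96), Dimt1 (0.95) and Ttc29 (0.94). Nes had the least close partners, Arhgap33 and Mef2d at 0.90 and Cplx2 at 0.86.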

How the data were processed

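RNA from 4 groups of 3 samples was hybridised to 12 Affymetrix arrays. Each deposited value is the intensity of 1 probe set, which the submitters' processing notes credit to MAS5. The version, scaling and settings of that step were not given in the sources used here. The table held 45101 probe sets, of which 34945 had 1 gene symbol in the platform annotation.

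Signals were transformed as log2(signal + 16). The brightest probe set per gene was kept, and a gene was tested where it exceeded the array median on all 3 arrays of any group (11806 of 18193 genes). One model over all 12 arrays was fitted in R 4.3.3 for 6 comparisons, using lmFit and eBayes of limma 3.58.1 with a trend on intensity, and was first tested on simulated data. P-values are two-sided and adjusted by Benjamini-Hochberg. Each comparison was refitted under 23 alternatives, 2 of them chosen after seeing the data (the looser filter on any 3 arrays, and the 4 arrays numbered 3 left out).

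All 10 genes are named. For related lists, naming was limited to the 2 called genes with the largest rise and the 2 with the largest fall at 48 and 72 h, plus paralogs and marker sums, and for each tested gene the 3 genes with the highest r. Other genes named from the lists were chosen after their values were seen. The 10 genes and the lists were chosen with earlier results of these data known. Promoter windows are from RefSeq. The number of arrays limits the precision, and p-values measure the spread between samples that may share a culture.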

Additional observations from a re-analysis of the deposited data

How the results depend on the processing

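Of the called differences of single genes at 48 and 72 h against uninduced cells, those of Fabp7, Slc1a2, Nfia, Vim and Apoe passed in every alternative that tested them, while Slc1a3 and Nfib at 48 h did not. The cause of the changes below was not tested, except that a stricter filter tests fewer genes and left 4 of the 10. The number of the 10 genes called at 24 h was 3, and it was 1 with a pseudocount of 64, 1 with the 6 arrays compared alone and 0 without the 4 arrays numbered 3 (4 at an unadjusted p under 0.05). With the filter at percentile 75 it was 4 at 48 h, 4 at 72 h and 2 for 48 h against 24 h. For 72 h against 48 h it was 1 with quantile scaling, 2 with array weights (whose fit stopped short of its tolerance) and 1 with the 6 arrays alone. Leaving out single arrays gave 0 to 4 at 24 h, 6 to 7 at 48 h, 7 to 8 at 72 h, 3 to 4 for 48 h against 24 h, 0 to 1 for 72 h against 48 h and 5 to 6 for 72 h against 24 h.

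Of all 11806 genes, 1335 were called at 24 h, 4316 at 48 h, 5180 at 72 h, 2104 for 48 h against 24 h, 94 for 72 h against 48 h and 3696 for 72 h against 24 h. With the 6 arrays alone the counts were 365 at 24 h, 6486 at 48 h, 1030 for 48 h against 24 h, 439 for 72 h against 48 h and 1984 for 72 h against 24 h. Without the 4 arrays numbered 3 they were 436, 2716 and 1268 for the first 3 of these, and 0 for 72 h against 48 h (678 at an unadjusted p under 0.05). Array weights gave 6956 at 48 h, 8108 at 72 h and 2549 for 72 h against 48 h. For that last comparison a pseudocount of 1 gave 19, a pseudocount of 64 gave 239, the filter at percentile 75 gave 51 and the mean of all probe sets gave 159. Leaving out single arrays gave 701 to 2961 at 24 h, 3213 to 6717 at 48 h, 4064 to 7358 at 72 h, 1195 to 3007 for 48 h against 24 h, 27 to 485 for 72 h against 48 h and 2439 to 4767 for 72 h against 24 h. Quantile scaling moved the median of all genes by -0.147 at 48 h, -0.164 at 72 h, -0.11 for 48 h against 24 h and -0.129 for 72 h against 24 h.

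Only differences that did not pass changed sign. With the mean of all probe sets, 72 h against 48 h was 0.0472 for Slc1a2 and 0.0754 for Nfib. For Nes, 48 h against 24 h was 0.0257 with array weights and -0.2597 to 0.0392 on leaving out single arrays. Leaving out single arrays also gave -0.0202 to 0.409 for its 72 h against 48 h and -0.1501 to 0.2791 for its 72 h against 24 h, which was -0.2832 with quantile scaling.

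With the replicate number as a block, the counts of the 10 genes called were 3, 7, 7, 4, 0 and 6 in the order of comparisons above, and of all genes 1676, 4709, 5616, 2501, 111 and 4172. The deviations of same-numbered arrays from their group means correlated at 0.0308 to 0.577 over 18 pairs (median 0.156). The highest value was between the arrays numbered 3 at 48 and 72 h. Over 36 pairs with different numbers the range was -0.479 to 0.322 (median -0.0883). Arrays with the same number thus shared some deviation. The rule used asked every same-numbered pair to exceed 0.1, so the main fit did not treat the numbers as a pairing.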

Other observations

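Olig2, a transcription factor of motor neuron and oligodendrocyte progenitors, was lowest on replicate 3 at the later times, as Fabp7 was. Its signals were 335, 233 and 33.2 at 48 h and 318, 359.5 and 19.5 at 72 h, with replicate 3 the lowest at both times. In uninduced cells Olig2 gave 5.70, 8.82 and 1.90, and at 24 h 14.5, 29.4 and 6.50, so replicate 3 was the lowest there too. Fabp7 at 24 h was instead lowest on replicate 1. The difference from uninduced cells was 2.93 ± 0.83 at 48 h (adjusted p = 0.0151) and 2.95 ± 0.83 at 72 h (adjusted p = 0.012) by limma. Fabp7 on replicate 3 was 156 at 48 h and 543 at 72 h, against 689 to 861 and 1420.0 to 1492 on the other arrays of those groups. Slc1a2 on replicate 3 was 621 at 48 h, within the range of the other arrays there (544 to 624), and 410.4 at 72 h, the lowest of its group (569.8 and 584 on the others). No array was grouped by these values.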
